A study of Mus musculus with 4 samples.

Results

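In mouse back skin, 10 genes that hold back the cell cycle or respond to p53 were followed: the CDK inhibitors Cdkn1a, Cdkn1b, Cdkn1c, Cdkn2a, Cdkn2b and Cdkn2c, and the p53 targets Ccng1, Gadd45a, Mdm2 and Plk2. All probe sets whose only gene symbol on the platform is 1 of these 10 symbols were taken, which gave 17 of the 45101 probe sets of the array, at least 1 for each of the 10 among 18194 genes. The series holds 4 Affymetrix arrays: a pair for wild type skin and a pair for skin that carries the K5-IKKbeta transgene. Every mouse was a male of 32 days on a mixed background labelled C57BL6 X DBA2, and each array held RNA pooled from 3 mice of 1 genotype. The transgene expresses IKKbeta (gene symbol Ikbkb), a kinase upstream of the transcription factor NF-kB, from keratin K5 control elements, which are active in basal cells of the epidermis, hair follicle and other stratified epithelia. How many founder lines the pools come from is not stated by the labels.

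Cyclin-dependent kinases (CDKs) drive cells through the division cycle, and 2 families of proteins stop them. The Cip/Kip proteins p21 (Cdkn1a), p27 (Cdkn1b) and p57 (Cdkn1c) bind complexes of CDK and cyclin, while the Ink4 proteins p16 (Cdkn2a), p15 (Cdkn2b) and p18 (Cdkn2c) bind Cdk4 and Cdk6 and keep D-type cyclins away from them. The transcription factor p53 answers DNA damage and other stress by switching on Cdkn1a, its negative regulator Mdm2, cyclin G1 (Ccng1), the damage-response gene Gadd45a and the polo-like kinase Plk2. In skin, p21 and p57 are known for their part in the exit of keratinocytes from the cell cycle as they differentiate.

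Short windows before the starts of these genes were searched for shared sequence. RefSeq windows of the 250 bases before an annotated start (build GRCm38.p6) were found for 9 of the 10 genes, 12 windows in all; the table used here holds none for Cdkn1c. They were searched for the p53 half-site consensus of 10 letters, which reads the same on both strands, and for the full p53 element of 20 letters, made of 2 half-sites with no spacer, with at most 1 mismatch. The 4 windows that follow are shown because they hold a match, in capitals, and belong to genes that moved in different directions or not at all past the threshold in the results that follow.
Cdkn1a, chr17:29090729-29090978, plus strand: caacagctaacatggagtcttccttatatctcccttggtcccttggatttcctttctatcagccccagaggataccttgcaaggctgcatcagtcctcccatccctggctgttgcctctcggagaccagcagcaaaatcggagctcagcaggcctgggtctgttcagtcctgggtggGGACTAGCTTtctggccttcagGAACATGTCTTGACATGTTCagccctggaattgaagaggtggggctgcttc
Ccng1, chr11:40755287-40755536, minus strand: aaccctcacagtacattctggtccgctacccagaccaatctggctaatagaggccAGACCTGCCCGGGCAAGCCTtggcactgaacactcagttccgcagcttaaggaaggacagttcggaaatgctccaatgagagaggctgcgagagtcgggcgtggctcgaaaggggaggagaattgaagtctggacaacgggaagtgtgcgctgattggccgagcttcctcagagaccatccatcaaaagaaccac
Gadd45a, chr6:67037408-67037657, minus strand: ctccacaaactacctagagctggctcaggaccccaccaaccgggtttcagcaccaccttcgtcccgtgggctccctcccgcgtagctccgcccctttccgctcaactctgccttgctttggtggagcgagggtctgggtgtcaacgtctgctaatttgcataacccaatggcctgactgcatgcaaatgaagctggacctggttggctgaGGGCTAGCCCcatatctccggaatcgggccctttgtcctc
Mdm2, chr10:117710759-117711008, minus strand: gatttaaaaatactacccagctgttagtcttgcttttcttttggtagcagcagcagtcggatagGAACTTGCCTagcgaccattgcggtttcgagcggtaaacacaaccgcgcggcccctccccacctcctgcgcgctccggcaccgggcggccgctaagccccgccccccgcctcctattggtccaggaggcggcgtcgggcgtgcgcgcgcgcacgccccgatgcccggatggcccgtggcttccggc

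Full p53 elements with at most 1 mismatch stood in the windows of Cdkn1a and Ccng1. In Cdkn1a the match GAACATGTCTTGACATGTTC lies 51 to 32 bases before the more upstream of 2 annotated starts, and the window of the other start holds no match. In Ccng1 the match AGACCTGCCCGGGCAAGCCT lies 195 to 176 bases before the start. Of all 32851 windows of the same length in the table, 25 hold such an element (0.0761%). The windows of Gadd45a and Mdm2 each hold 1 half-site and no full element. A half-site was present in 2341 of all windows (7.13%). The kappaB consensus of 10 letters, the sequence that NF-kB binds, was searched on both strands and was present in 1281 of all windows (3.9%) and in 0 of the 12 windows of these genes. Matches are descriptions of these letters, and nothing about binding was measured. Sequence outside these windows, such as introns, and full elements with a spacer were not searched.

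Values are log2 expression by RMA, a method that corrects background, normalizes arrays by quantiles and summarizes the probes of a set. Array medians were 6.91 to 6.96. Each log2 fold change is the K5-IKKbeta mean minus the wild type mean, and p-values were computed with limma and adjusted by Benjamini-Hochberg, either over 13074 tested genes with 1 probe set each or over all 45101 probe sets, at a threshold of 0.05. Ikbkb itself, the transgene's gene, was called higher at 3 of its 5 probe sets, and the one with the largest difference, 1454184_a_at, read 6.50 and 6.54 in wild type and 8.77 and 8.74 in K5-IKKbeta skin. Levels of cell type markers differed between the genotypes: 16 of 16 tested markers of hair matrix and shaft fell, and the log2 of their summed unlogged level was 16.89 and 16.93 on the wild type arrays and 12.04 and 12.56 on the K5-IKKbeta arrays. Markers of the inner root sheath (8 of 8 lower) and of melanocytes (7 of 7 lower) fell too, while 8 of 8 macrophage and 6 of 7 skeletal muscle markers rose. Of basal keratinocyte markers 5 of 7 rose (summed level 14.85 and 14.78 in wild type, 15.44 and 15.13 with the transgene), and of suprabasal markers 6 of 8 rose and 2 fell (summed level 15.54 and 15.56, then 16.37 and 16.10). Rises were called for 3 of 6 tested markers of T and NK cells, 4 of 7 of fibroblasts and 3 of 5 of endothelium. They were also called for 2 of 4 of adipocytes and 2 of 3 of Schwann cells, and these 5 lists had no falls. Listed markers that were not tested are left out of these counts. Of all tested genes 23.4% were called higher and 10.6% lower. None of the markers tested had a value in the lowest 25% of any array. In these bulk samples fewer cells of a type and less RNA per cell cannot be told apart, and the part of these shifts in the results was not tested.

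The 10 genes did not move as 1 group. Of the 9 that were bright enough to be tested, Cdkn1c, Cdkn2c and Ccng1 rose, Cdkn1a, Gadd45a and Plk2 fell, and Cdkn1b, Cdkn2b and Mdm2 did not pass the threshold (limma, adjusted over all tested genes). The share called was 66.7%, against 33.9% of all tested genes; 23.4% of all tested genes were higher and 10.6% lower. The higher genes were 68.9% of those called, and 57.8% when hair genes were left out before another quantile normalization. The median log2 fold change of the 9 genes was 0.05 and that of all tested genes 0.09. Arrays of the genotypes did not overlap for 6 of the 9 genes, as for 69.5% of all tested genes, so that count is near the background. No change was as large as 2-fold; the differences that passed ran from 1.30-fold to 1.70-fold.

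**Figure D1:**
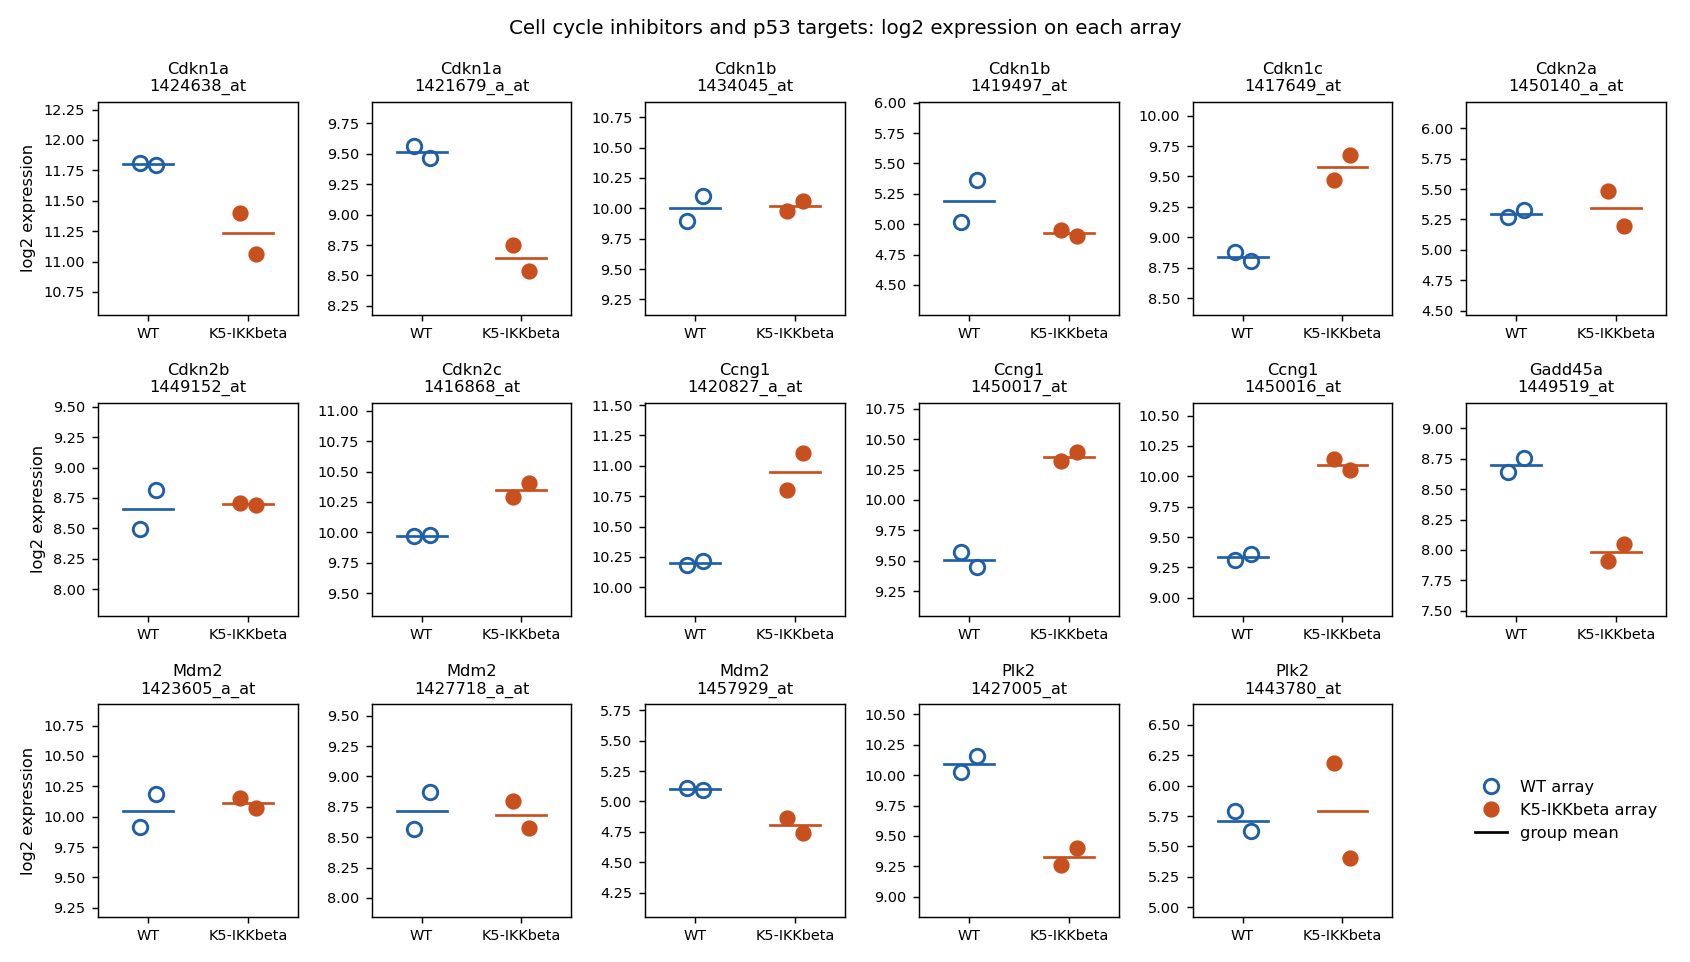
Log2 expression (vertical axis, the same span of log2 units in every panel) of the 17 probe sets on the 2 wild type arrays (open circles) and the 2 K5-IKKbeta arrays (filled circles), with group means as lines. Both K5-IKKbeta arrays lie below both wild type arrays for Cdkn1a, Gadd45a and the brighter Plk2 probe set, and above them for Cdkn1c, Cdkn2c and all 3 Ccng1 probe sets.

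Among the Cip/Kip inhibitors, Cdkn1a and Cdkn1c changed in opposite directions. Cdkn1a, the inhibitor p21 that p53 and differentiation signals induce, was measured by 2 probe sets. Its brighter one, 1424638_at, read 11.81 and 11.79 in wild type and 11.40 and 11.07 in K5-IKKbeta skin. The wild type arrays lay within 0.02 of their mean, both K5-IKKbeta arrays lay lower, and the gap between the groups was 0.39. This is a 1.49-fold fall (log2 fold change -0.57, 95% interval -0.89 to -0.25, adjusted p = 0.0201 over all genes). The other probe set, 1421679_a_at, read 9.57 and 9.46 in wild type and 8.75 and 8.54 in K5-IKKbeta skin, a 1.83-fold fall (log2 fold change -0.87, adjusted p = 0.00503 over all probe sets). Both probe sets fell, with intervals that overlap. The fall at 1424638_at missed the threshold over all genes when either wild type array was left out (adjusted p = 0.11 for array 1 and 0.10 for array 2), with log2 fold changes of -0.56 and -0.58.

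Cdkn1c, the imprinted gene of p57, rose. Its probe set 1417649_at read 8.88 and 8.80 in wild type and 9.47 and 9.68 in K5-IKKbeta skin, with a gap of 0.60 between the groups. The rise was 1.66-fold (log2 fold change 0.73, SE 0.11, adjusted p = 0.00413 over all genes). Cdkn1b, the inhibitor p27, whose level is set to a large extent by breakdown of the protein, read 9.90 and 10.10 in wild type and 9.98 and 10.06 in K5-IKKbeta skin at probe set 1434045_at. The K5-IKKbeta arrays lay between the wild type arrays, and the log2 fold change of 0.02 had a 95% interval of -0.25 to 0.29 (adjusted p = 0.918 over all genes). That interval leaves room for a change of up to about 0.3 on the log2 scale either way. The second Cdkn1b probe set, 1419497_at, was dim, with 3 of 4 values in the lowest 25% of an array, and gave -0.26 (adjusted p = 0.28 over all probe sets).

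The Ink4 inhibitors showed 1 small rise. Cdkn2c, the inhibitor p18, read 9.97 and 9.98 in wild type and 10.29 and 10.41 in K5-IKKbeta skin at its only probe set, 1416868_at. The groups were apart by 0.31, and the rise was 1.30-fold (log2 fold change 0.37, 95% interval 0.14 to 0.61, adjusted p = 0.0295 over all genes). The same values missed the threshold in the fit over all probe sets (adjusted p = 0.0673), and over all genes when wild type 1 (adjusted p = 0.155), wild type 2 (0.148) or K5-IKKbeta 2 (0.0766) was left out, and with hair genes left out before another quantile normalization (0.0583). Cdkn2b, the inhibitor p15 known as a target of TGF-beta signalling, read 8.49 and 8.82 in wild type and 8.71 and 8.69 in K5-IKKbeta skin (log2 fold change 0.05, 95% interval -0.27 to 0.36, adjusted p = 0.824 over all genes). Its K5-IKKbeta arrays were close together and lay between the wild type arrays, which differed from each other more than the genotypes did.

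Cdkn2a, the gene of p16 and, in another reading frame, of the p53 activator p19Arf, was too dim to be among the tested genes. Its probe set 1450140_a_at read 5.27 and 5.33 in wild type and 5.49 and 5.20 in K5-IKKbeta skin, and 2 of the 4 values were in the lowest 25% of an array. In the fit over all probe sets its log2 fold change was 0.04 (95% interval -0.27 to 0.36, adjusted p = 0.881). At this brightness a low level of the transcript cannot be told from background, and which transcripts of the gene the probe set reads was not checked.

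**Figure D2:**
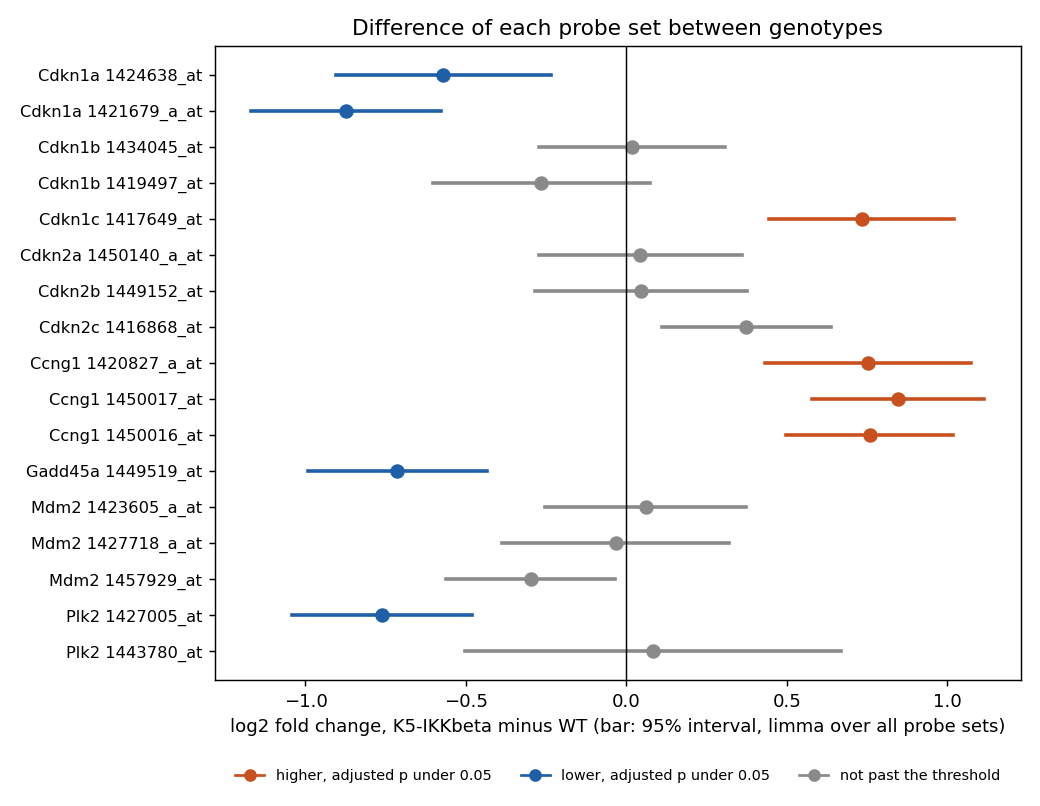
Log2 fold change (K5-IKKbeta minus wild type, horizontal axis) of the 17 probe sets with 95% intervals from limma over all probe sets; orange is higher and blue lower at an adjusted p under 0.05, grey did not pass. The 3 Ccng1 probe sets lie between 0.75 and 0.85 and the 2 Cdkn1a probe sets at -0.57 and -0.87, and the interval of Mdm2 1457929_at, unadjusted like the others, does not reach 0.

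The p53 targets were split. Ccng1, cyclin G1, which recruits a phosphatase to Mdm2, rose at all 3 of its probe sets. Probe set 1420827_a_at read 10.18 and 10.22 in wild type and 10.80 and 11.10 in K5-IKKbeta skin, a 1.69-fold rise (log2 fold change 0.75, 95% interval 0.45 to 1.06, adjusted p = 0.00624 over all genes). Probe set 1450017_at read 9.57 and 9.45 in wild type and 10.32 and 10.40 in K5-IKKbeta skin (log2 fold change 0.85, adjusted p = 0.0039 over all probe sets). The dimmest, 1450016_at, read 9.32 and 9.36 against 10.14 and 10.05 (log2 fold change 0.76, adjusted p = 0.00527 over all probe sets). At each of the 3 the lowest K5-IKKbeta array lay above the highest wild type array by 0.59 to 0.75.

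Gadd45a and Plk2 went the other way. Gadd45a, a stress protein that binds Pcna and p21 and activates stress kinases, read 8.64 and 8.76 in wild type and 7.91 and 8.05 in K5-IKKbeta skin at its only probe set, 1449519_at. The groups were apart by 0.58, and the fall was 1.64-fold (log2 fold change -0.71, 95% interval -0.97 to -0.46, adjusted p = 0.00387 over all genes). Plk2, a polo-like kinase of early cell cycle entry and stress responses, read 10.03 and 10.16 in wild type and 9.26 and 9.40 in K5-IKKbeta skin at probe set 1427005_at. It fell 1.70-fold (log2 fold change -0.76, 95% interval -1.02 to -0.50, adjusted p = 0.00311 over all genes). The dim second probe set of Plk2, 1443780_at, read 5.79 and 5.63 in wild type and 6.18 and 5.41 in K5-IKKbeta skin, and its K5-IKKbeta arrays lay on either side of the wild type arrays (log2 fold change 0.08, adjusted p = 0.877 over all probe sets). Averaging both probe sets gave a log2 fold change of -0.34 for Plk2 (adjusted p = 0.086).

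Mdm2, the ubiquitin ligase that marks p53 for destruction and is itself a p53 target, did not pass the threshold. Its brightest probe set, 1423605_a_at, read 9.92 and 10.18 in wild type and 10.16 and 10.07 in K5-IKKbeta skin (log2 fold change 0.06, 95% interval -0.24 to 0.36, adjusted p = 0.741 over all genes). Probe set 1427718_a_at read 8.57 and 8.87 against 8.80 and 8.58 (-0.03, adjusted p = 0.923 over all probe sets). For both, wild type pool 1 was the lowest array and wild type pool 2 the highest, with the K5-IKKbeta arrays between them. The third, 1457929_at, was in the lowest 25% on all 4 arrays and gave -0.30 (adjusted p = 0.128 over all probe sets). The genes whose windows hold a full p53 element, Cdkn1a and Ccng1, thus fell and rose respectively. Of the 2 whose windows hold a half-site alone, Gadd45a fell and Mdm2 did not pass. Elements of these genes outside the windows were not searched.

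Counted by probe set, 4 of the 17 were higher (3 of Ccng1 and 1 of Cdkn1c) and 4 lower (2 of Cdkn1a, 1 of Gadd45a and 1 of Plk2), against 10.4% of all probe sets higher and 5.88% lower, or 16.3% either way. Arrays of the genotypes did not overlap for 11 of the 17, as for 56.1% of all probe sets. Most calls of the member probe sets were lost when either wild type array was left out. Fewer probe sets were then called over the whole array too. The sizes of the differences moved little at the brightest probe set of each gene. Without wild type 1 and without wild type 2, the log2 fold changes were 0.77 and 0.70 for Cdkn1c and 0.74 and 0.77 for Ccng1. For the lower genes they were -0.56 and -0.58 (Cdkn1a), -0.77 and -0.65 (Gadd45a) and -0.83 and -0.70 (Plk2). Over the tested genes, with less adjustment, Cdkn1c, Ccng1 and Gadd45a passed under all 13 alternative settings tried. Plk2 passed under 12, Cdkn1a under 11 and Cdkn2c under 9. For Cdkn1c, Ccng1 and Gadd45a the adjusted p came closest to the threshold without a wild type array.

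**Figure D3:**
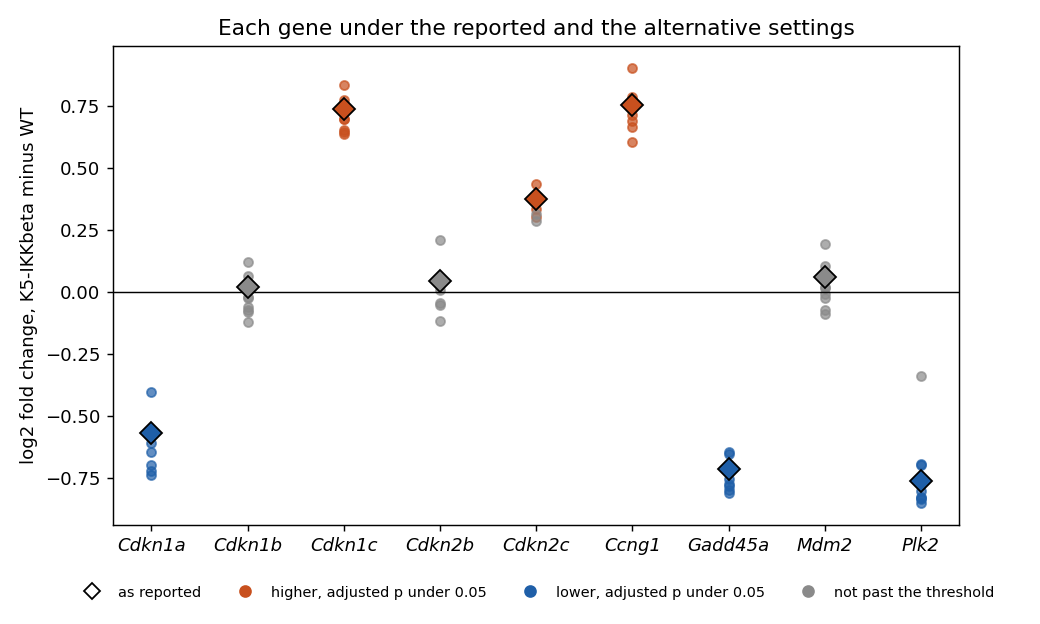
Log2 fold change (K5-IKKbeta minus wild type, vertical axis) of the 9 tested genes as reported (diamonds) and under 13 alternative settings (circles); colour gives the call. Values of the 6 genes that changed stay on 1 side of 0, from 0.60 to 0.90 for Ccng1 and from -0.81 to -0.64 for Gadd45a, and those of Cdkn1b, Cdkn2b and Mdm2 lie on both sides of it; points can hide one another.

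The genes most alike Ccng1 and Plk2 over the 4 arrays were found by the Euclidean distance between log2 profiles, each centred on its own mean. Nearest to Ccng1 were the proteoglycan Bgn (distance 0.02), Slitrk6 (0.04), a transmembrane protein with leucine-rich repeats, and Ptgfrn (0.05). Nearest to Plk2 were Rbbp6 and Ptpn12 (0.04 each), a ubiquitin ligase that binds Rb and a tyrosine phosphatase, and the epidermal transcription factor Grhl1 (0.05). With 4 arrays such closeness says little beyond a like difference between genotypes: the log2 fold changes were 0.72 to 0.75 for the first 3 genes and -0.76 to -0.73 for the others.

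Other p53 targets were also mixed. Of 36 listed genes 31 were tested, 8 were higher and 2 lower, a share of 32.3% against 33.9% of all tested genes, and the median log2 fold change was 0.10. Tap1, which carries peptides to MHC class I molecules, read 8.17 and 8.62 in wild type and 10.52 and 10.42 in K5-IKKbeta skin, a 4.20-fold rise (adjusted p = 0.00042). The death receptor Fas rose 2.37-fold (adjusted p = 0.0071), from 6.75 and 6.08 to 7.62 and 7.69, and the DNA repair gene Ddb2 1.72-fold (adjusted p = 0.0035). Sfn, the 14-3-3 sigma protein of keratinocytes that holds cells in G2, fell 2.02-fold (adjusted p = 0.0013), from 12.29 and 12.39 to 11.43 and 11.22. The nuclease Aen fell 1.46-fold (adjusted p = 0.009), which was lost without wild type 2 (adjusted p = 0.0803). The number of higher genes fell when either wild type array was left out, as it did over all tested genes. The number of lower genes was 5 after another quantile normalization and 5 when hair genes were left out first. It fell without wild type 2, as over all tested genes. Without wild type 1 it rose slightly, while the number of lower genes over all tested genes fell.

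Of 18 tested genes of the p53 family and its regulators, 2 were higher and 1 lower (16.7% against 33.9% of all tested genes, median log2 fold change 0.02). Trp53, the gene of p53 itself, is not analysed here. Trp73, the p53 relative p73, rose 1.92-fold (adjusted p = 0.00086), from 7.56 and 7.58 to 8.53 and 8.50. Sirt1, a deacetylase that acts on p53, fell 1.64-fold (adjusted p = 0.0046). Atm, the kinase that signals DNA breaks to p53, rose 1.32-fold (adjusted p = 0.033), a call that ended when wild type 1 (adjusted p = 0.212), wild type 2 (0.0717) or K5-IKKbeta 2 (0.0639) was left out, after another quantile normalization (0.0505) and with hair genes left out first (0.0551). The number of lower genes in this list was 2 after another quantile normalization, 3 when hair genes were left out first, and 2 without K5-IKKbeta 2.

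**Figure D4:**
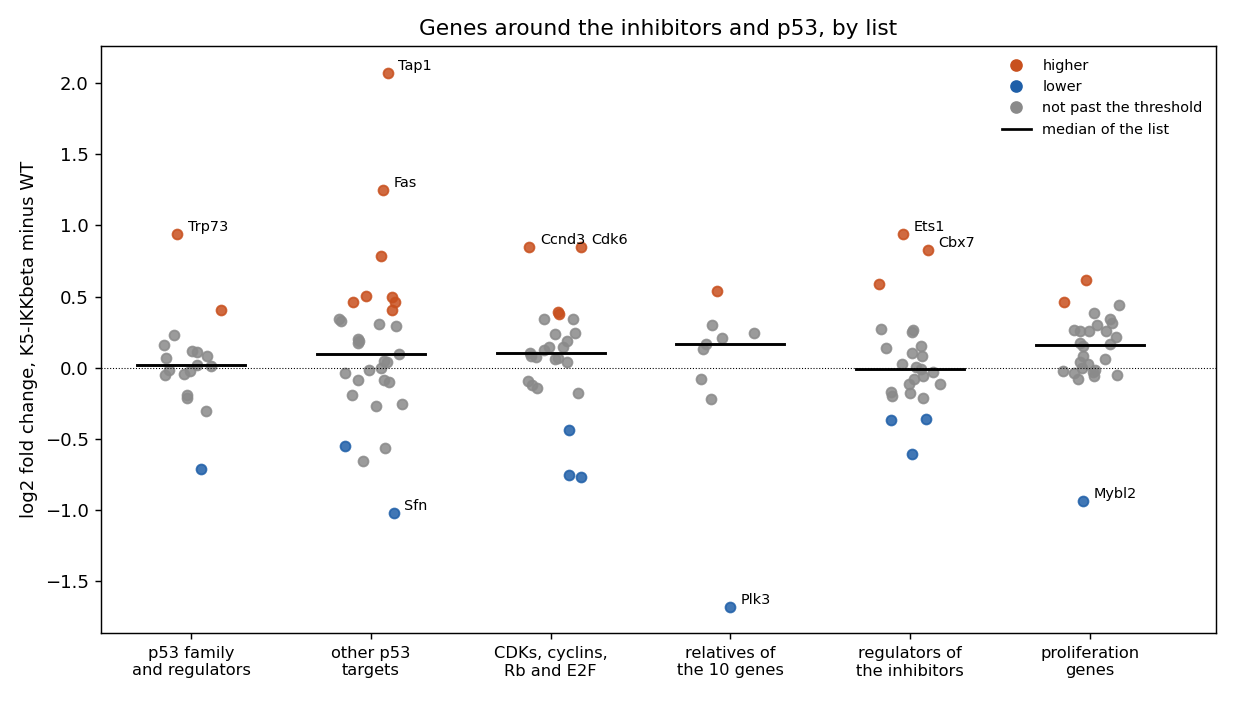
Log2 fold change (K5-IKKbeta minus wild type, vertical axis) of the tested genes of 6 lists, 1 point a gene, with the list's median as a line; orange is higher and blue lower at an adjusted p under 0.05. The medians lie between -0.01 and 0.17, and the genes farthest from 0 are Tap1 at 2.07 and Plk3 at -1.68.

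Among the kinases and cyclins that the inhibitors act on, with Rb and E2F, 4 of 25 tested genes were higher and 3 lower (28% against 33.9% of all tested genes, median 0.10). Ccnd3, a D-type cyclin, rose from 9.37 and 9.39 to 10.25 and 10.21, or 1.80-fold (adjusted p = 0.0012). Cdk6, the partner of D-type cyclins and a target of the Ink4 proteins, rose from 9.58 and 9.67 to 10.45 and 10.49, also 1.80-fold (adjusted p = 0.0014). Rb1, the retinoblastoma protein whose phosphorylation by these kinases releases E2F, fell 1.68-fold (adjusted p = 0.0052), and E2f2 fell 1.70-fold (adjusted p = 0.0087), a call lost without wild type 2 (adjusted p = 0.0515). The Rb relative Rbl2 and E2f1 had rises of 1.31-fold and 1.30-fold and E2f3 a fall of 1.35-fold, each called as reported (adjusted p = 0.028, 0.024 and 0.040) and each lost if either wild type array was left out (adjusted p from 0.0697 to 0.225). Leaving out K5-IKKbeta 1 also ended the calls of Rbl2 (0.0667) and E2f3 (0.0934), and the mean of its probe sets that of E2f1 (0.183). The call of Rbl2 was lost after another quantile normalization too (0.0555, and 0.0605 with hair genes left out first), and that of E2f3 without the filter on dim probe sets (0.0542). With either wild type array left out, fewer genes of the list were called higher and fewer lower, as over all tested genes.

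Of 9 relatives of the 10 genes by family or by symbol alone, Plk3 fell and Ccni rose (22.2% against 33.9% of all tested genes, median log2 fold change 0.17). Plk3, a stress-responsive polo-like kinase, fell 3.20-fold (adjusted p = 0.00044), from 9.86 and 9.85 in wild type to 8.35 and 8.01 in K5-IKKbeta skin. Ccni, a cyclin related to Ccng1, rose 1.45-fold (adjusted p = 0.016), a call that ended when wild type 1 was left out (adjusted p = 0.111) and when its probe sets were averaged (log2 fold change 0.10, adjusted p = 0.527). The remaining genes with a Gadd45, Plk, Ccng or Cdkn symbol, 7 in number, did not pass as reported. Among them Cdkn3 shares the symbol and is not a Cip/Kip or Ink4 inhibitor. This list had 4 higher genes without K5-IKKbeta 1, 2 with the filter at the 60th percentile and 2 with eBayes trend and robust settings, and 2 lower genes after another quantile normalization with or without hair genes.

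Of 25 genes that act on the inhibitors or on their transcription, 3 were higher and 3 lower (24% against 33.9% of all tested genes, median -0.01). Ets1, a transcription factor known to activate Cdkn2a, rose 1.92-fold (adjusted p = 0.0016), and Cbx7, a Polycomb protein that represses Cdkn2a, rose 1.77-fold (adjusted p = 0.0067), a call that ended when wild type 2 was left out (adjusted p = 0.0512) and when its probe sets were averaged (0.0937). Smad3, the TGF-beta signal transducer that acts on Cdkn2b and Cdkn1a, rose 1.51-fold (adjusted p = 0.0056, and 0.0537 without wild type 1). Foxo3, a transcription factor that activates Cdkn1b, fell 1.52-fold (adjusted p = 0.0054). Hes1 and Id3 had falls of 1.29-fold and 1.28-fold (adjusted p = 0.048 and 0.033), both lost if either wild type array was left out (adjusted p from 0.118 to 0.251). Leaving out K5-IKKbeta 1 also ended the call of Hes1 (0.131), K5-IKKbeta 2 that of Id3 (0.07), and testing without the filter on dim probe sets both (0.0694 and 0.0512).

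Proliferation genes mostly did not pass the threshold, with 2 of 28 higher and 1 lower (10.7% against 33.9% of all tested genes, median 0.16). The replication genes Mcm6 and Cdt1 had rises of 1.53-fold and 1.38-fold (adjusted p = 0.011 and 0.027). Mybl2, a transcription factor of dividing cells, fell 1.91-fold (adjusted p = 0.0012), from 8.25 and 8.10 to 7.25 and 7.24. The list also set pools of the same genotype apart. Wild type pool 2 lay above wild type pool 1 in 25 of 28 (median difference 0.20), and K5-IKKbeta pool 2 above pool 1 in 27 of 28 (median difference 0.34). The wild type difference was not particular to this list. Wild type pool 2 was also above pool 1 in 16 of 18 genes of the p53 family and its regulators. The same held for 19 of 25 regulators of the inhibitors, but for 0 of 7 fibroblast markers. The number of higher genes in the proliferation list rose well above the reported one without K5-IKKbeta 1. It fell when any other array was left out. Over all tested genes that number fell without either wild type array and stayed near the reported one without either K5-IKKbeta array. With probe sets of shared sequence left out the list had 4 higher genes. With the mean of all probe sets the count was 0 (3 at an unadjusted p under 0.05), and the call of Mcm6 was lost there and without wild type 1 (adjusted p = 0.0624 and 0.0787). The call of Cdt1 was lost there and without wild type 1, wild type 2 or K5-IKKbeta 2 (adjusted p from 0.0583 to 0.172).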

How the data were processed

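Biotin-labelled cRNA had been made from 5 micrograms of total RNA of back skin for each array, as the labels' protocols state. The values deposited by the authors are log2 RMA values: the submitters' processing notes name RMA without a version or log base, and log2 was taken from the range of 2.65 to 14.7. They were used without further normalization. Software and detection calls behind them were not given in the sources used here. Probe sets were named from the platform's annotation and updated by gene identifier through RefSeq's GRCm38.p6 gene table: 34958 had 1 symbol, 932 several and 9211 none, 34754 matched and 0 symbols changed. Each of 18194 genes was represented by its probe set of highest mean, and the 13074 with a mean over 6.33, the 40th percentile of the array, were tested. Cdkn2a was not among them. A second fit took all 45101 probe sets.

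Groups came from the labels (n = 2 arrays each). Models were fitted in R 4.3.3 by limma 3.58.1, with lmFit, eBayes, no term but group and two-sided p-values, and the code was tested on simulated data. At an unadjusted p under 0.05, 5773 genes and 6 of the 9 tested members passed. The p-values rest on the spread between pools of 3 mice, and eBayes draws the variance of each gene toward that of all genes. In the fit over genes the shared part had 4 degrees of freedom and the gene's own spread 2. The calls thus depend on this borrowing too. An exact permutation test of 2 against 2 arrays cannot go below 0.333. The number of arrays limits the precision, and RMA can compress large changes. Intervals are 95% and unadjusted.

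The members and lists were chosen with earlier results of these data known. All members were named; from each other list up to 4 called genes with the largest change were named, and more where 5 or fewer passed in a direction. Alternatives were other filters (none, 60th percentile), probe set choices, normalizations, eBayes with trend and robust settings, a replicate block, and each array left out. Replicate numbers are shared by the genotypes, but nothing in the labels says that they pair the pools.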

Additional observations from a re-analysis of the deposited data

How the results depend on the processing

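The 3 member genes called higher and the 3 called lower were 2 to 3 of each when 1 array was left out; 2 were higher with hair genes left out before another quantile normalization, and 2 lower with the mean of all probe sets. The call of Cdkn1a was lost when either wild type array was left out. Over all tested genes, 3056 were higher and 1380 lower, and leaving out 1 array gave 1570 to 3096 and 669 to 1544; the lowest counts came without a wild type array. Over all probe sets, 4696 were higher and 2654 lower, with ranges of 1648 to 4416 and 840 to 2698. Called genes were higher in 68.9% as reported, in 59.2% after another quantile normalization and in 57.8% with hair genes left out first. With the replicate number as a block the member genes called were again 3 higher and 3 lower, and all genes 3088 and 1465; deviations from group means of same-numbered arrays correlated at 0.255, and no call of a member gene changed. In the proliferation list the block gave 6 higher genes in place of 2.

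Differences short of the threshold changed sign. Cdkn1b gave -0.12 with the mean of all probe sets, -0.060 after another quantile normalization, -0.022 with arrays centred on their median and -0.075 with hair genes left out, and -0.083 to 0.12 over the fits that leave out 1 array. Cdkn2b gave -0.044 after another quantile normalization and -0.053 with hair genes left out, and -0.12 to 0.21 over those fits. Mdm2 gave -0.090 with the mean of all probe sets, -0.011 after another quantile normalization and -0.027 with hair genes left out, and -0.073 to 0.19 over those fits; its second probe set, 1427718_a_at, gave -0.18 to 0.12. The dim probe sets of Plk2 (1443780_at) and Cdkn2a gave -0.30 to 0.47 and -0.10 to 0.19. The median of the 9 genes moved from 0.05 to -0.083 without wild type 1, 0.19 without wild type 2, and -0.090 when probe sets were averaged. The cause of these shifts was not tested. Signal near background limits what can be said of these dim probe sets.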
